A study of Homo sapiens with 8 samples.

Results

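Cathepsins are the proteases that digest protein inside lysosomes. They are made as inactive precursors, tagged with mannose 6-phosphate in the Golgi, carried to endosomes and matured there by cleavage in the acid lumen, and cystatins hold the cysteine-type enzymes in check where they escape. In liver cancer and other tumours, cathepsins are also known to be secreted and to cut matrix proteins around the cell. The genes described here are the cathepsins named in a list of 10 symbols that have a row in the gene table. The list yielded 9 members of 11818 genes: CTSB, CTSC, CTSH, CTSK, CTSL, CTSV and CTSZ of the cysteine class, CTSD of the aspartic class and CTSA of the serine class. CTSF was not analysed here.

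Poly(A) RNA was sequenced from HCCLM3, an established human hepatocellular carcinoma cell line, in 4 libraries labelled siRNA (genotype given as circPTK2 knock down, cells transiently transfected with an siRNA to the circular RNA circPTK2) and 4 labelled NC (genotype given as WT). The transfection protocol is worded alike for both groups. Both groups were grown in the same serum-containing medium. Whether NC cells received a control siRNA, and whether replicates were separate cultures, is not given, so p-values reflect only how much these libraries vary, and that variation may be technical. Each value below is the number of reads of a gene multiplied by 1 scaling factor for its library. The siRNA libraries held 28077305 to 32532669 reads and the NC libraries 37087203 to 43512175. The circular RNA itself is not measured by such a table, and the linear PTK2 mRNA stood at 204 to 219 in siRNA libraries and 161 to 227 in NC libraries (log2 change 0.21, limma adjusted p = 0.167). NC replicates 1 and 2 stood apart from NC replicates 3 and 4 over much of the table, with mitochondrial shares of 5.32% and 5.01% against 1.96% and 2.19%, and 4.39% to 5.59% in the siRNA libraries. For the members, the cell type markers and the list genes named below, changes against each NC pair alone are given where a call or a direction depends on the pair. Of 14 hepatocyte lineage markers, 11 were in the table. Of these, 3 rose (ALB, SERPINA1 and HNF4A), 4 fell (AFP, APOB, TF and KRT8) and 4 did not pass. Over all genes 42.5% were called (21.7% higher and 20.8% lower in siRNA). SERPINA1 reached 1 only in siRNA libraries and APOB only in NC libraries, so each was tested through its higher group alone. In NC libraries SERPINA1 stood at 0 to 0.210, and in siRNA libraries APOB at 0.178 to 0.723. AFP was called against NC replicates 3 and 4 alone (-1.01) but not 1 and 2 alone (-0.55), with limma adjusted p = 0.0035 and 0.0772. ALB averaged 32.05 in siRNA libraries and 9.20 in NC libraries, KRT8 1517 in siRNA libraries and 3101 in NC libraries, and APOB 0.421 in siRNA libraries and 8.16 in NC libraries, while APOA1, TTR and GPC3 were not analysed here.

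The promoters of 7 of the 9 members were found in a RefSeq table (GRCh38.p14), and CTSB and CTSK had no entry. The 250 bases before each start were searched on both strands for CACGTG, the core of the element through which the transcription factor TFEB and its relatives drive lysosomal genes, and for CCAAT and GGGCGG, common promoter boxes. CACGTG stood in the windows of CTSD (1 copy) and CTSA (2 copies) and is found in 6.34% of all 35116 promoters. CCAAT was present before CTSL, CTSV and CTSC, against 32.0% of all promoters, and GGGCGG before all 7, against 42.6%. Below, 30 bases are shown for the member that rose most (CTSD), the other member with the element (CTSA), the member that fell most (CTSL) and its closest paralogue (CTSV), with CACGTG or CCAAT in capitals. The CTSL and CTSV windows, lined up on CCAAT, have 25 of 30 bases in common. A match is a description of the letters, not evidence of a bound site.
CTSD, chr11:1763957-1763986, minus strand: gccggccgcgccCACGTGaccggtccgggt
CTSA, chr20:45891290-45891319, plus strand: tgtCACGTGgcgccggagttCACGTGactc
CTSL, chr9:87726021-87726050, plus strand: ctgccggcacagCCAATcgcagcgcagcca
CTSV, chr9:97039201-97039230, minus strand: tggccggcacagCCAATcgcagcgcgggaa

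All 9 members could be tested, with limma on log2(value + 1) fitted over 11812 genes. In siRNA libraries CTSD rose and CTSL and CTSK fell, while CTSA, CTSB, CTSC, CTSH, CTSV and CTSZ did not pass the threshold of 0.05 on the adjusted p. These 3 calls among 9 genes stand beside 42.5% of all genes called (21.7% higher and 20.8% lower in siRNA), so the share of members called was not above that of the table. The same 3 members were those whose siRNA and NC values did not overlap, a pattern seen in 43.3% of all genes (22.4% with siRNA above NC and 20.9% below). The median log2 change was -0.060 over the members and 0.012 over all genes, and the median size of change, whatever its sign, was 0.21 over the members and 0.40 over all genes. The members' median is not stable in sign: it ran from -0.16 without NC replicate 2 to 0.057 without NC replicate 4, and was also above 0 without siRNA replicate 1 (0.013) or siRNA replicate 2 (0.052). It was -0.30 against NC replicates 3 and 4 alone. In fits that left out 1 library, the median size ran from 0.11 without NC replicate 3 to 0.31 without NC replicate 2. Over all genes it was 0.39 and 0.43 in those 2 fits. Against NC replicates 3 and 4 alone the median size was 0.34 over the members and 0.48 over all genes. Against NC replicates 1 and 2 alone it was 0.22 and 0.40.

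**Figure D1:**
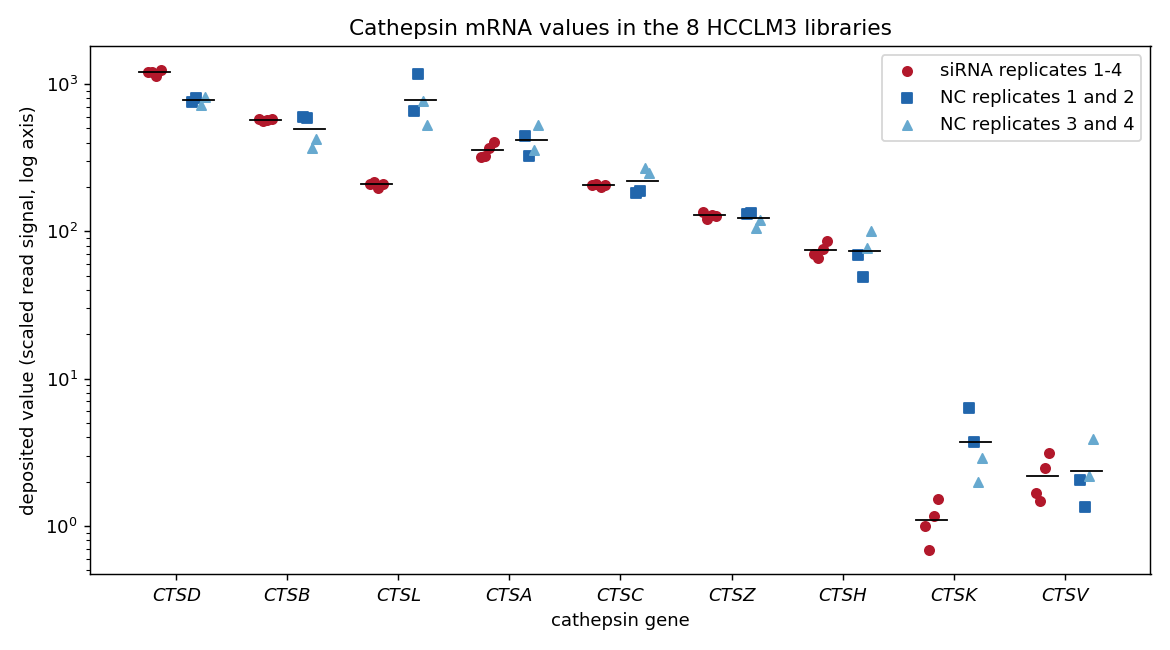
Deposited value (scaled read signal, log axis) of each cathepsin gene in every library, with siRNA libraries on the left of each gene, NC libraries on the right, NC pairs by symbol and a line at each group mean. CTSD in siRNA libraries lies above all NC libraries, and CTSL and CTSK lie below them. The values of the NC pairs do not overlap for CTSB, CTSC, CTSH, CTSK, CTSV and CTSZ. These are 6 of 9 members, beside 70.7% of all genes tested.

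CTSL encodes cathepsin L, a potent lysosomal endopeptidase that tumour cells also secrete, and lies on chromosome 9 from 87725519 to 87731393 (GENCODE v29, GRCh38). Its value was 211, 216, 198 and 210.0 in siRNA replicates 1 to 4, against 661, 1177, 772 and 526 in NC replicates 1 to 4. Every siRNA library lay below every NC library, and the siRNA libraries were close together whereas the NC libraries spread over more than a factor of 2. The means were 209 ± 7.81 in siRNA libraries and 784 ± 280.4 in NC libraries (SD, n = 4 each), 3.76-fold higher in NC. The log2 change was -1.84 (SE 0.21, limma adjusted p = 0.000289), and the gene ranked 110 of 11812 from the largest decrease. It was -2.08 against NC replicates 1 and 2 alone and -1.61 against NC replicates 3 and 4 alone (limma adjusted p = 0.000131 and 5.39e-06), so both pairs gave a decrease. The 18 other well-expressed genes of its 10 Mb stretch had a median log2 change of 0.12. The difference between this change and that of its paralogue CTSV, known mainly from thymus, testis and cornea, was not tested.

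CTSK encodes cathepsin K, the collagen-degrading enzyme best known from osteoclasts, and was among the 2 members with low values here. Its value was 0.997, 0.683, 1.17 and 1.52 in siRNA libraries, against 6.29, 3.74, 1.99 and 2.90 in NC libraries. The groups did not overlap, but the lowest NC library, replicate 3, was close to the highest siRNA library. The means were 1.09 ± 0.348 in siRNA libraries and 3.73 ± 1.85 in NC libraries (SD, n = 4 each), from 21 to 239 reads per library. The log2 change was -1.11 (SE 0.27, limma adjusted p = 0.0103). It was -1.505 against NC replicates 1 and 2 alone and -0.72 against NC replicates 3 and 4 alone (limma adjusted p = 0.000424 and 0.0139). Its surroundings on chromosome 1 moved the same way: of 131 other well-expressed genes in the 10 Mb stretch 86 fell and 5 rose, with a median log2 change of -0.62. With such stretch medians removed from every library, the log2 change of CTSK was -0.48 and did not pass (limma adjusted p = 0.205).

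CTSS, which was not on the list of 10 but on a context list of other cathepsins, lies 30250 bases from CTSK in that same stretch and rose. Cathepsin S is active at near-neutral pH and is known for cutting the invariant chain in antigen-presenting cells. Its value was 61.8, 59.2, 55.0 and 48.0 in siRNA libraries, against 13.3, 24.0, 28.1 and 14.4 in NC libraries, with no overlap. The log2 change was 1.503 (SE 0.23, limma adjusted p = 0.0012) and 2.14 with the stretch medians removed (limma adjusted p = 0.000355). The other gene of that list with a row, CTSO, stood at 12.3 ± 3.14 in siRNA libraries and 12.8 ± 2.98 in NC libraries (SD, n = 4 each) and did not pass (limma adjusted p = 0.872). Of 11 leukocyte markers only CD68, CD163 and ITGAM had rows, with a summed value of 83.4 to 146 in siRNA libraries and 59.7 to 94.6 in NC libraries. CD163 averaged 2.27 ± 0.224 in siRNA libraries and 0.157 ± 0.0566 in NC libraries (limma adjusted p = 6.03e-05). It reached 1 only in siRNA libraries, so it entered the test through that group alone. Its result without a filter on low values is not given here. In NC libraries it stood at 0.0807 to 0.217, and 0.0807 is the value of 3 reads in NC replicate 2. CD68 averaged 103 ± 30.9 in siRNA libraries and 73.1 ± 18.7 in NC libraries, ITGAM 5.05 ± 0.999 in siRNA libraries and 5.86 ± 2.11 in NC libraries, and neither passed (limma adjusted p = 0.154 and 0.67). Against NC replicates 1 and 2 alone ITGAM was at -0.52 and passed (limma adjusted p = 0.0299). Against NC replicates 3 and 4 alone it was at 0.24 and did not (limma adjusted p = 0.306). The pan-leukocyte gene PTPRC, with CD14, CSF1R, MRC1, LYZ, TYROBP, FCER1G and AIF1, was not analysed here, and the part of other cells in the CTSS values was not tested.

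CTSD encodes cathepsin D, the main aspartic endopeptidase of lysosomes, and had the highest mean value of the family over all 8 libraries. In NC libraries alone the mean of CTSL was higher, at 784 against 775 for CTSD. The gene spans bases 1752752 to 1764573 of chromosome 11 (minus strand). Its value was 1208, 1208, 1136 and 1248 in siRNA replicates 1 to 4, against 756, 808, 725 and 811 in NC replicates 1 to 4. The 2 groups were far apart relative to their spread, and here the NC pairs did not separate. The means were 1199.7 ± 46.6 in siRNA libraries and 775 ± 41.8 in NC libraries (SD, n = 4 each), a 1.55-fold increase. The log2 change was 0.63 (SE 0.082, limma adjusted p = 0.000468), 0.62 against NC replicates 1 and 2 alone and 0.64 against NC replicates 3 and 4 alone. A gene annotated as AC068580.4 shares 11203 bases of its span with CTSD on the same strand, and how reads in shared exons were assigned is not given; its own mean was 82.5 in siRNA libraries and 83.3 in NC libraries.

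CTSB and CTSC were the members for which the choice of NC libraries decided the outcome. CTSB encodes cathepsin B, an endopeptidase that also trims dipeptides from carboxy termini, and it is often studied in tumour invasion. Its value was 578, 564, 568 and 582 in siRNA libraries, against 595, 587, 368 and 426 in NC libraries. The siRNA libraries thus lay just under NC replicates 1 and 2 and above NC replicates 3 and 4, and the groups overlapped. The log2 change was 0.24 (SE 0.16, limma adjusted p = 0.246). Against NC replicates 3 and 4 alone CTSB passed, with a log2 change of 0.53 (limma adjusted p = 7.53e-05), and against NC replicates 1 and 2 alone it was -0.045 (limma adjusted p = 0.582). Against NC replicates 3 and 4 alone 65.9% of all genes were called (33.5% higher and 32.4% lower in siRNA), and against NC replicates 1 and 2 alone 57.8% (29.7% higher and 28.1% lower). The 21 other well-expressed genes around CTSB on chromosome 8 showed a median log2 change of 0.28. With stretch medians removed the change of CTSB was -0.11 (limma adjusted p = 0.672).

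CTSC encodes cathepsin C, the dipeptidyl peptidase that activates the serine proteases of immune granules. It had values of 205, 209, 201 and 208 in siRNA libraries, against 181, 187, 268 and 249 in NC libraries, so the siRNA libraries lay between the NC pairs. The log2 change was -0.084 (SE 0.14, limma adjusted p = 0.648). Against NC replicates 3 and 4 alone it was -0.33 and passed (limma adjusted p = 0.00147), and against NC replicates 1 and 2 alone it was 0.16 and did not (limma adjusted p = 0.0712). The mitochondrial share given above follows the same split of the NC libraries, and its part in the CTSB and CTSC values was not tested.

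**Figure D2:**
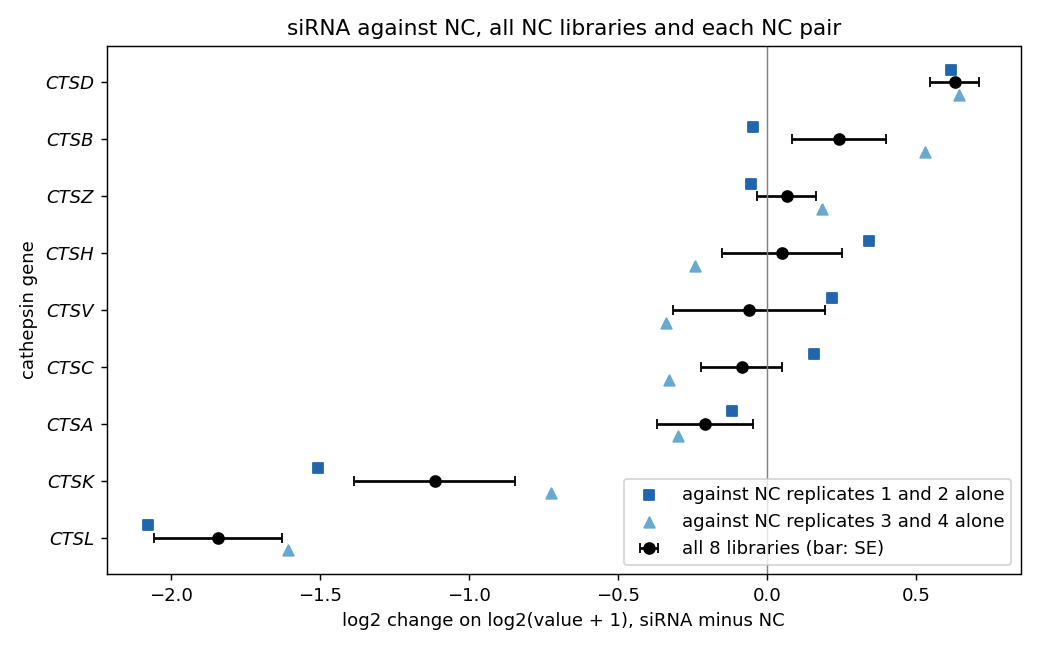
Log2 change of each cathepsin gene on log2(value + 1), siRNA minus NC, with all 8 libraries (circles, bars are the SE) and against each NC pair alone (squares for replicates 1 and 2, triangles for replicates 3 and 4). CTSD lies near 0.63 for all of these and CTSL between -2.08 and -1.61, while CTSB runs from -0.045 to 0.53.

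The remaining members did not pass, and their siRNA and NC values overlapped. CTSA encodes the protective protein that is both a carboxypeptidase and the stabiliser of lysosomal beta-galactosidase and neuraminidase. Its value was 320.2, 323, 369 and 405 in siRNA libraries, against 446, 327, 357 and 528 in NC libraries, giving -0.21 on the log2 scale (SE 0.16, limma adjusted p = 0.33). Its span on chromosome 20 shares 1144 bases with NEURL2 and 200 bases with PLTP, both on the opposite strand. The use of strand in counting is not given. CTSZ, the carboxypeptidase also called cathepsin X, was steady at 136, 121, 129 and 127 in siRNA libraries, against 132, 134, 106 and 120.0 in NC libraries (log2 change 0.067, SE 0.10, limma adjusted p = 0.621). The aminopeptidase gene CTSH had 70.3, 65.7, 76.4 and 86.3 in siRNA libraries, against 69.3, 49.1, 76.7 and 101 in NC libraries (log2 change 0.051, SE 0.20, limma adjusted p = 0.86). It sits on chromosome 15 in a stretch where, of 61 well-expressed neighbours 31 fell and 5 rose, with a median log2 change of -0.46. With stretch medians removed the log2 change of CTSH was 0.46 and did not pass (limma adjusted p = 0.104). It was 0.34 against NC replicates 1 and 2 alone and -0.24 against NC replicates 3 and 4 alone (limma adjusted p = 0.0746 and 0.131). CTSV, the cathepsin L paralogue, had values of 1.67, 1.46, 2.47 and 3.11 in siRNA libraries, against 2.05, 1.35, 2.17 and 3.89 in NC libraries (log2 change -0.060, SE 0.26, limma adjusted p = 0.871). CTSV rests on 45 to 158 reads per library, and its SE was large beside its change.

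Levels between genes were compared per kilobase of annotated exon. In siRNA libraries the order of the means was CTSD, CTSL, CTSB, CTSZ, CTSA, CTSC, CTSH, CTSK and CTSV. CTSD stood at 384 ± 14.9 per kilobase there and CTSL at 88.2 ± 3.30, with ranges that did not meet. In NC libraries CTSL was first, at 331 ± 119 per kilobase, and CTSD next, at 248 ± 13.4 (SD, n = 4 each), but the ranges overlapped and CTSL was the higher of the 2 in 3 of 4 libraries. Among 11806 genes with an exon length, CTSD ranked 54 in siRNA libraries and 104 in NC libraries, and CTSL 387 in siRNA libraries and 67 in NC libraries. CTSZ and CTSA, and CTSK and CTSV, had ranges that overlapped with their neighbour in siRNA libraries. In NC libraries CTSA and CTSB, CTSB and CTSZ, and CTSC and CTSH also overlapped. Per kilobase of the longest coding transcript, CTSA and CTSB moved above CTSL in the siRNA order. By that length CTSD moved just above CTSL in the NC order, at 365 against 360. First place in NC libraries and the order in the middle thus depend on the length used.

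The members' summed value changed little, whereas its make-up differed. The sum was 0.267% to 0.283% of a siRNA library and 0.280% to 0.303% of an NC library, ranges that overlap slightly. CTSD made up 43.7% ± 0.987 of the sum in siRNA libraries and 26.9% ± 1.91 in NC libraries. CTSL made up 7.60% ± 0.312 in siRNA libraries and 26.8% ± 7.33 in NC libraries (SD, n = 4 each). CTSB made up 20.9% ± 0.422 in siRNA libraries and 17.0% ± 3.11 in NC libraries. These are shares of read signal not corrected for length, given as a description with no test.

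**Figure D3:**
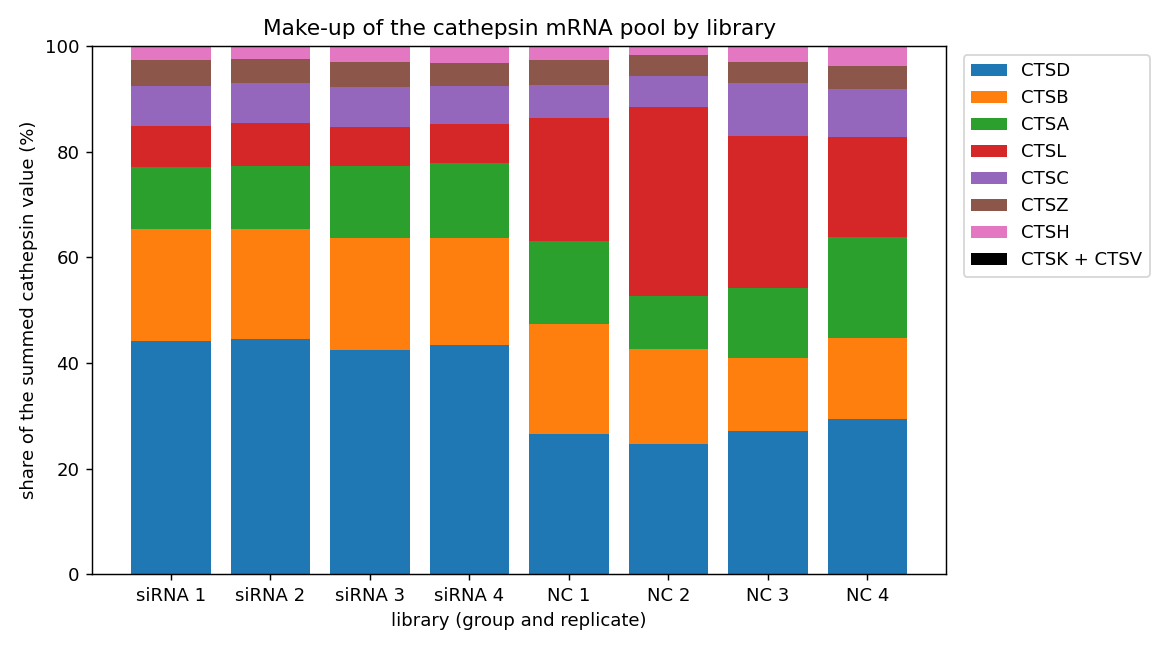
Share (%) of each cathepsin gene in the summed value of the 9 members, by library, with siRNA libraries left and NC libraries right. The CTSD share is 42.4% to 44.6% in siRNA libraries and 24.7% to 29.3% in NC libraries, and the CTSL share is 7.31% to 7.98% in siRNA libraries and 19.0% to 35.9% in NC libraries.

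Genes with profiles nearest to the members at the ends of the range were sought among 10303 genes with a mean of at least 5, by Euclidean distance of log2(value + 1) centred on each gene's mean over the 8 libraries. CTSL was nearest to CYP4F11, a fatty acid hydroxylase gene, at a distance of 0.17. CYP4F11 had 39.1, 43.2, 36.9 and 39.7 in siRNA libraries, against 120.4, 208, 139 and 94.5 in NC libraries, so NC replicate 2 was highest and NC replicate 4 lowest for both genes. The next were MTTP, the lipoprotein-assembly transfer protein gene, at 0.40, and the calcium-binding protein gene CALB2, at 0.61. CTSD, which was both the largest increase and the highest mean, was nearest to ATRN at 0.13, to the mitochondrial fission gene FIS1 at 0.16 and to SPRYD3 at 0.17. ATRN was not called with stretch medians removed (log2 change 0.11, limma adjusted p = 0.283). These distances describe likeness over 8 libraries only.

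The mRNAs of proteins that mature or restrain cathepsins changed in both directions. LGMN, the asparaginyl endopeptidase legumain that cleaves cathepsins B, H and L into their mature chains, fell. It had 18.8, 20.5, 18.4 and 20.03 in siRNA libraries, against 47.6, 41.2, 42.8 and 47.1 in NC libraries, with no overlap and no split between the NC pairs (log2 change -1.16, SE 0.096, limma adjusted p = 5.47e-05). Of 6 maturation and complex partners, 2 rose and 1 fell, beside 42.5% of all genes called, with a median log2 change of 0.025. GLB1, the beta-galactosidase held in complex by CTSA, rose to 119.6 ± 11.1 in siRNA libraries, against 88.0 ± 7.05 in NC libraries (limma adjusted p = 0.00836), but its direction turned with stretch medians removed (log2 change -0.31, limma adjusted p = 0.0418). GALNS, another enzyme found in that complex, averaged 43.9 ± 3.51 in siRNA libraries and 35.2 ± 1.84 in NC libraries (limma adjusted p = 0.0279). It lost the call without any 1 of the siRNA libraries or without NC replicate 1 (limma adjusted p = 0.0524 to 0.0915). NEU1, the neuraminidase of the complex, had 146 to 162 in siRNA libraries and 113 to 249 in NC libraries and did not pass (limma adjusted p = 0.72). It passed in opposite directions against the NC pairs, with a log2 change of 0.28 against NC replicates 1 and 2 alone and -0.49 against NC replicates 3 and 4 alone (limma adjusted p = 0.0303 and 0.00233).

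Of 14 endogenous inhibitors 4 were in the table, of which 1 rose and 1 fell, beside 42.5% of all genes called. The median log2 change of these 4 genes was 0.35. It was 0.14 against NC replicates 1 and 2 alone and 0.21 against NC replicates 3 and 4 alone. CSTB, the cytosolic cystatin B, had 170.1, 150.2, 139.8 and 143 in siRNA libraries, against 118, 125, 108 and 125 in NC libraries (log2 change 0.34, SE 0.095, limma adjusted p = 0.0201). CST3, the secreted cystatin C, had 109.9, 91.5, 104 and 106 in siRNA libraries, against 127, 129, 118 and 123 in NC libraries (log2 change -0.27, SE 0.088, limma adjusted p = 0.0331). The values of both genes did not overlap between groups, but the calls were near the threshold. CSTB lost its call when siRNA replicate 1 or siRNA replicate 2 was left out (limma adjusted p = 0.0614 and 0.055), and CST3 without siRNA replicates 2, 3 or 4 or NC replicates 1, 2 or 4, each in turn (limma adjusted p = 0.0524 to 0.105). With stretch medians removed neither passed (limma adjusted p = 0.14 for CSTB and 0.145 for CST3). CSTA, another cytosolic cystatin, had 3.49 to 4.10 in siRNA libraries and 0.788 to 5.19 in NC libraries and did not pass (limma adjusted p = 0.191). Against NC replicates 3 and 4 alone CSTA passed, with a log2 change of 1.26 (limma adjusted p = 8.7e-05), as it did without NC replicate 2 (0.96, limma adjusted p = 0.0129), while against NC replicates 1 and 2 alone it was -0.022 (limma adjusted p = 0.937). CD74, the invariant chain, had 1.20 to 2.44 in siRNA libraries and 0.815 to 2.29 in NC libraries and did not pass either (limma adjusted p = 0.249). Its log2 change was 0.68 against NC replicates 1 and 2 alone, which passed, and 0.046 against NC replicates 3 and 4 alone, which did not (limma adjusted p = 0.0262 and 0.874).

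All 24 genes of mannose 6-phosphate tagging and sorting were in the table. Of these, 4 rose and 3 fell, beside 42.5% of all genes called, with a median log2 change of 0.12. M6PR, the cation-dependent mannose 6-phosphate receptor that carries cathepsins from the Golgi, rose to 429, 413, 379 and 370 in siRNA libraries, against 230, 235, 332 and 329 in NC libraries (log2 change 0.52, SE 0.14, limma adjusted p = 0.0194). Leaving out siRNA replicate 1 or siRNA replicate 2 ended the call (limma adjusted p = 0.0587 and 0.0555). AP1S1, a subunit of the AP-1 sorting coat, rose to 242 ± 10.7 in siRNA libraries, against 193 ± 14.9 in NC libraries (limma adjusted p = 0.0159), and lost the call without siRNA replicate 4 (limma adjusted p = 0.0526) or with stretch medians removed (limma adjusted p = 0.432). VPS26B, a retromer subunit, had 18.6 to 23.2 in siRNA libraries and 25.4 to 61.0 in NC libraries (limma adjusted p = 0.0206), and was not called when siRNA replicate 1 or siRNA replicate 2 was left out (limma adjusted p = 0.0594 and 0.0561). AP1M2, the epithelial AP-1 subunit, had 10.8 to 14.1 in siRNA libraries and 12.8 to 46.2 in NC libraries and passed (limma adjusted p = 0.0313). Its groups overlapped, and it lost the call in 7 of the fits that left out 1 library (limma adjusted p = 0.0519 to 0.081). It was also not called against NC replicates 1 and 2 alone, at a log2 change of -0.51, and was called against NC replicates 3 and 4 alone, at -1.64 (limma adjusted p = 0.105 and 2.94e-06).

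Of 18 lysosome gene regulators 17 were in the table, and 6 rose and 6 fell, beside 42.5% of all genes called. The median log2 change of these regulators was 0.24. That median was -0.13 against NC replicates 1 and 2 alone and 0.26 against NC replicates 3 and 4 alone, so its sign depends on the pair. FNIP2, a partner of folliculin in lysosomal nutrient sensing, rose to 54.4 ± 7.55 in siRNA libraries, against 22.8 ± 2.22 in NC libraries (limma adjusted p = 0.000165). Within the Rag GTPases that hold mTORC1 and TFEB-family factors at the lysosome, RRAGD rose to 84.7 ± 4.64 in siRNA libraries, against 46.8 ± 6.18 in NC libraries (limma adjusted p = 0.000466). RRAGB fell to 9.37 ± 2.18 in siRNA libraries, against 35.1 ± 8.32 in NC libraries (limma adjusted p = 0.000336). LAMTOR4, part of the scaffold that anchors the Rag GTPases, rose to 55.0 ± 2.73 in siRNA libraries, against 32.9 ± 5.22 in NC libraries (limma adjusted p = 0.00166). TFEB and TFE3 are named after their values were seen. TFEB itself had 3.11 to 5.20 in siRNA libraries and 2.08 to 2.99 in NC libraries (log2 change 0.62, limma adjusted p = 0.0214), and its relative TFE3 had 133 to 143 in siRNA libraries and 164 to 349 in NC libraries (log2 change -0.76, limma adjusted p = 0.0277). Over the alternative fits the adjusted p ran from 0.00169 to 0.0646 for TFEB and from 2.89e-06 to 0.0679 for TFE3, so neither call held in all of them.

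Of 29 other lysosomal hydrolases and membrane proteins 28 were in the table, and 6 rose and 3 fell, with a median log2 change of 0.041. CD63, a tetraspanin of late endosomes, rose to 1145 ± 61.0 in siRNA libraries, against 680.4 ± 166 in NC libraries (limma adjusted p = 0.00574). NAGLU, a heparan sulfate-degrading enzyme, rose 1.63-fold and ARSA, arylsulfatase A, 1.51-fold (limma adjusted p = 0.00284 and 0.00593), while ACP2, lysosomal acid phosphatase, fell to 18.4 ± 1.71 in siRNA libraries, against 26.8 ± 1.35 in NC libraries (limma adjusted p = 0.00424). Of 15 genes of pericellular proteolysis, the setting in which secreted cathepsins act, 12 were in the table, and 2 rose and 4 fell, with a median log2 change of -0.12. Against NC replicates 1 and 2 alone 2 rose and 6 fell, with a median of -0.37, and against NC replicates 3 and 4 alone 5 rose and 4 fell, with a median of 0.11. MMP2, gelatinase A, rose to 11.4, 13.2, 13.9 and 11.7 in siRNA libraries, against 0.316, 0.323, 2.17 and 1.72 in NC libraries (limma adjusted p = 0.000206). MMP14, the membrane metalloprotease that activates MMP2, had a log2 change of -1.79 (limma adjusted p = 2.29e-05). S100A10, the annexin A2 partner that binds plasminogen, fell to 480.2 ± 41.2 in siRNA libraries, against 785 ± 182 in NC libraries (limma adjusted p = 0.00818), but with stretch medians removed its log2 change was -0.049 (limma adjusted p = 0.843). PLAT, tissue plasminogen activator, fell to 3.39 ± 0.777 in siRNA libraries, against 12.6 ± 7.45 in NC libraries (limma adjusted p = 0.0116). Over all genes the share called was 42.5%, and none of these lists was tested as a set.

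**Figure D4:**
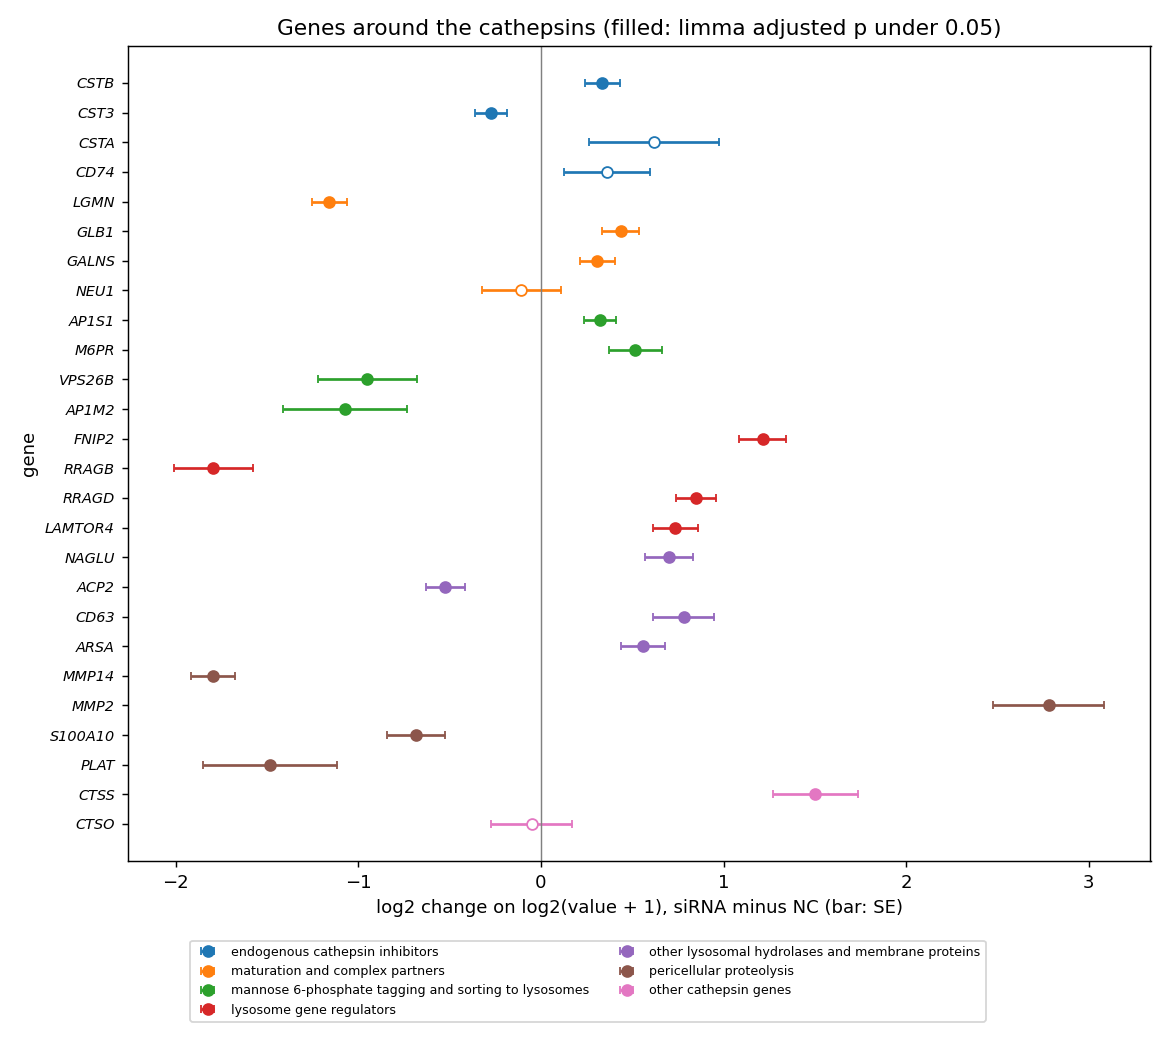
Log2 change on log2(value + 1), siRNA minus NC, with its SE for up to 4 genes of each context list with the smallest p, filled where the limma adjusted p was under 0.05. LGMN lies at -1.16, FNIP2 at 1.21, RRAGB at -1.79, MMP2 at 2.78 and CTSS at 1.503.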

How the data were processed

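Messenger RNA of 4 siRNA and 4 NC libraries was analysed. The column names speak of counts, but the authors deposited a signal: reads multiplied by a factor for each library. HTSeq 0.12.4, HISAT2, Trimmomatic and FastQC are named in the submitters' processing notes, as are edgeR, DESeq2 and the build hg38, with roles and settings not given in the sources used here. Every gene was above 1 in at least 3 libraries, so low genes had been removed. Values were whole multiples of the value of 1 read (100% within 0.02 reads, with the smallest value standing for 2 reads in 4 of the libraries), so reads were recovered. No 2 libraries of a group agreed within sampling noise.

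Genes that reached 1 in 4 or more libraries were tested with limma 3.58.1 (trend, robust; R 4.3.3) on log2(value + 1), which understates changes of low genes, with Benjamini-Hochberg adjustment over 11812 genes. edgeR 4.0.16 on the recovered reads called 5002 genes, and DESeq2 1.42.0 was a further alternative. The procedures were tested on simulated data. These had no split among the NC libraries, so that test does not cover the split seen here. Members, context lists and alternatives were chosen with earlier results of these data known. Named genes are all members, up to 4 genes with the smallest p of each list, and the 3 nearest profiles of the largest increase, the largest decrease and the highest mean. Outside this rule, TFEB, TFE3 and some hepatocyte markers given with values were chosen after their values were seen. Positions and exon lengths are from GENCODE v29, and well-expressed neighbours have a mean of at least 5.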

Additional observations from a re-analysis of the deposited data

How the results depend on the processing

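The CTSD increase and CTSL decrease passed in all 20 alternative fits, with log2 changes of 0.48 to 0.66 and of -2.08 to -1.61. The count of members that rose was 1 in every fit except the fit without NC replicates 1 and 2, where 2 did. The 2 decreases became 1 with a minimum mean value of 5 (CTSK not tested), with 10 Mb medians removed, and at adjusted p under 0.01. They became 3 without NC replicates 1 and 2, where CTSC was called too. Calls over all genes came to 3953 higher and 3829 lower without NC replicates 1 and 2, and to 1570 higher and 1464 lower at adjusted p under 0.01. In edgeR and DESeq2 CTSD, CTSL and CTSK were called too.

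Without NC replicates 1 and 2, where 65.9% of all genes were called (33.5% higher, 32.4% lower), inhibitors had 2 higher and 1 lower, partners 3 and 2, sorting genes 8 and 6, other lysosomal genes 8 and 8, and pericellular genes 5 and 4. Without NC replicates 3 and 4, where 57.8% were called (29.7% higher, 28.1% lower), inhibitors had 2 higher and 1 lower, partners 3 and 2, and sorting genes 7 and 4.

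CTSB, CTSC, CTSH, CTSV, CTSZ, CSTA, NEU1, CTSO and GLB1 changed sign in some fits, and the cause was not tested, whereas CTSA and CD74 kept their sign in all of theirs. CTSB was at -0.11 with 10 Mb medians removed. Without NC replicates 3 and 4 the log2 changes were -0.045 (CTSB), 0.16 (CTSC), 0.22 (CTSV), -0.053 (CTSZ), -0.022 (CSTA), -0.28 (CTSO) and 0.28 (NEU1, limma adjusted p = 0.0303). Without NC replicates 1 and 2 CTSH was at -0.24, CTSO at 0.18, CTSV at -0.34 and CTSZ at 0.19. Leaving out 1 library gave -0.17 to 0.014 for CTSC, -0.13 to 0.21 for CTSH, -0.22 to 0.14 for CTSV, -0.0035 to 0.11 for CTSZ, -0.29 to 0.092 for NEU1 and -0.20 to 0.085 for CTSO. With 10 Mb medians removed CTSH was at 0.46, NEU1 at 0.37 and GLB1 at -0.31.

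Whether the replicate numbers pair the libraries is not given. Correlations of deviations were -0.068, 0.15, -0.066 and 0.16 for equal numbers. For unequal numbers they ran from -0.178 (siRNA replicate 1 with NC replicate 4) to 0.155 (siRNA replicate 3 with NC replicate 4). They cannot decide the pairing, because the NC deviations also hold the split between the NC pairs. With the replicate block 2294 genes were higher and 2252 lower, CTSD, CTSL and CTSK stayed called, and CST3, GALNS and M6PR did not. With equal library totals GALNS, M6PR and AP1S1 were not called. CTSK and CTSV rest on few reads.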
